A study of Mus musculus with 12 samples.

Results

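The bile acid synthesis enzymes described here are 10 genes chosen by name, of 18193 genes measured in mouse liver: Cyp7a1, Cyp8b1, Cyp27a1, Cyp7b1, Cyp39a1, Hsd3b7, Akr1d1, Amacr, Slc27a5 and Baat. The rule uses no measured value, though it was drawn up with earlier results of these data known, and all 10 genes had a probe set, the group of short probes with which an array reads a transcript. RNA of whole liver was hybridised to Affymetrix mouse genome arrays, and the values are log2 levels. The 3 conditions compared had 4 arrays each: wild type, Atp7b-/- without an agent, and Atp7b-/- given supplemental zinc. All 12 arrays came from C57Bl/6 livers at 3 months of age. Atp7b encodes the copper pump that hepatocytes use to load ceruloplasmin and to send copper into bile, and Atp7b-/- mice are used as a model of Wilson disease. Zinc is given in that disease to lower copper uptake from the gut. How the Atp7b allele was made, how much zinc was given and for how long, and the sexes used were not given in the sources used here. Neither was whether each array held the RNA of its own animal, so p-values measure the spread between arrays, which may in part be technical.

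Hepatocytes turn cholesterol into bile acids along a pair of converging routes. The classical route opens with hydroxylation of the sterol ring by Cyp7a1 in the endoplasmic reticulum, and the alternative route opens with oxidation of the side chain, after which Cyp7b1 or Cyp39a1 hydroxylates the resulting oxysterols. Shared enzymes then remodel the ring, and peroxisomal enzymes shorten the side chain while it is joined to coenzyme A. Taurine or glycine is attached before export into bile. Bile acids bind the nuclear receptor FXR (Nr1h4), which induces the repressor Nr0b2 (SHP), and gut-derived Fgf15 acts through Fgfr4 and Klb to lower Cyp7a1.

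The labels were checked first. The level of Atp7b was 8.51, 8.59, 8.61 and 8.69 on the wild-type arrays, 7.17, 7.25, 7.11 and 6.91 on the untreated mutant arrays and 6.85, 6.92, 6.57 and 6.98 on the zinc-treated ones, so every Atp7b-/- array lay below every wild-type array. Whether that probe set lies in the altered stretch of the gene was not given in the sources used here. All 12 hepatocyte markers were above the lower quartile of the arrays, and their summed level ran from 17.61 to 17.67 in wild type, from 17.55 to 17.61 in untreated Atp7b-/- and from 17.58 to 17.66 with zinc. The brightest markers carry that sum: Alb was 14.98 to 15.09 and Ass1 7.40 to 10.09. Taken singly, 2 of the 12 rose and 2 fell in untreated Atp7b-/- against wild type, beside 14.3% and 10.3% of all genes. Zinc-treated arrays 2 and 3 stood apart by 13 pancreatic acinar markers, whose summed level was 13.54 and 11.74 there against 10.90 to 11.37 across the other 10 arrays. Leaving those arrays out was among the alternative settings. The 3′ minus 5′ signal of actin and Gapdh, a measure of RNA breakdown, was 0.79 to 0.88 in untreated Atp7b-/-, 0.62 to 0.78 in wild type and 0.54 to 0.74 with zinc, so it moved with the genotype and with the treatment, and its part in the differences below was not tested. The summed level of 8 endothelial markers was also lower in untreated Atp7b-/- (10.88 to 11.01) than in wild type (11.19 to 11.35) or with zinc (11.07 to 11.30), while 7 of 12 macrophage markers fell in untreated Atp7b-/- against wild type. Of the 8 endothelial markers, 3 fell and 1 rose in that comparison. Of 7 cholangiocyte markers, 2 rose in untreated Atp7b-/-, where their summed level was 9.34 to 9.48 against 9.18 to 9.30 in wild type and 9.22 to 9.35 with zinc. Of 10 stellate cell markers, 3 rose with zinc against untreated, and their summed level was 12.41 to 12.59 in wild type, 12.18 to 12.41 in untreated Atp7b-/- and 12.54 to 12.72 with zinc. The part of these cell types in the differences of the enzymes was not tested. In whole liver, fewer cells of a type and less RNA per cell cannot be told apart.

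In untreated Atp7b-/- liver, 3 of the 10 enzymes were lower than in wild type and 1 was higher. Cyp7b1, Amacr and Slc27a5 fell to 58.3%, 74.5% and 81.4% of the wild-type level, and Cyp39a1 rose 1.71-fold. The 4 enzymes that passed stand beside 24.6% of all genes (adjusted p under 0.05 in limma with Benjamini-Hochberg adjustment over 18193 genes), with 14.3% of genes higher and 10.3% lower. Arrays of both groups did not overlap for 5 of the 10 enzymes, beside 26.4% of all genes. The median difference of the 10 enzymes was -0.17 on the log2 scale against -0.05 for all genes, and the median size of the difference, whatever its sign, was 0.28 against 0.17.

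With zinc, 3 of the 10 enzymes were higher than in untreated Atp7b-/- liver and 0 were lower in limma's test (5 higher and 1 lower at an unadjusted p under 0.05). The 3 were Amacr, Slc27a5 and Cyp39a1. Of all genes, 6.54% passed, 1.70% upward and 4.84% downward. The arrays did not overlap for 4 enzymes, beside 15.3% of all genes. The median difference of the 10 enzymes was 0.22 against 0.01 for all genes. The untreated Atp7b-/- arrays enter this comparison as well as the one with wild type, so opposite signs in the 2 comparisons are not separate evidence. Set against wild type directly, zinc-treated liver differed in 1 enzyme, Cyp39a1, which was higher, beside 7.62% of all genes (4.89% higher and 2.73% lower). It was also the 1 enzyme whose arrays did not overlap, beside 14.3% of all genes, and the median difference of the 10 was -0.03 against -0.02. Without zinc-treated arrays 2 and 3, 1 enzyme passed against untreated Atp7b-/-, beside 614 of all 18193 genes, and 2 passed against wild type, beside 699.

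**Figure D1:**
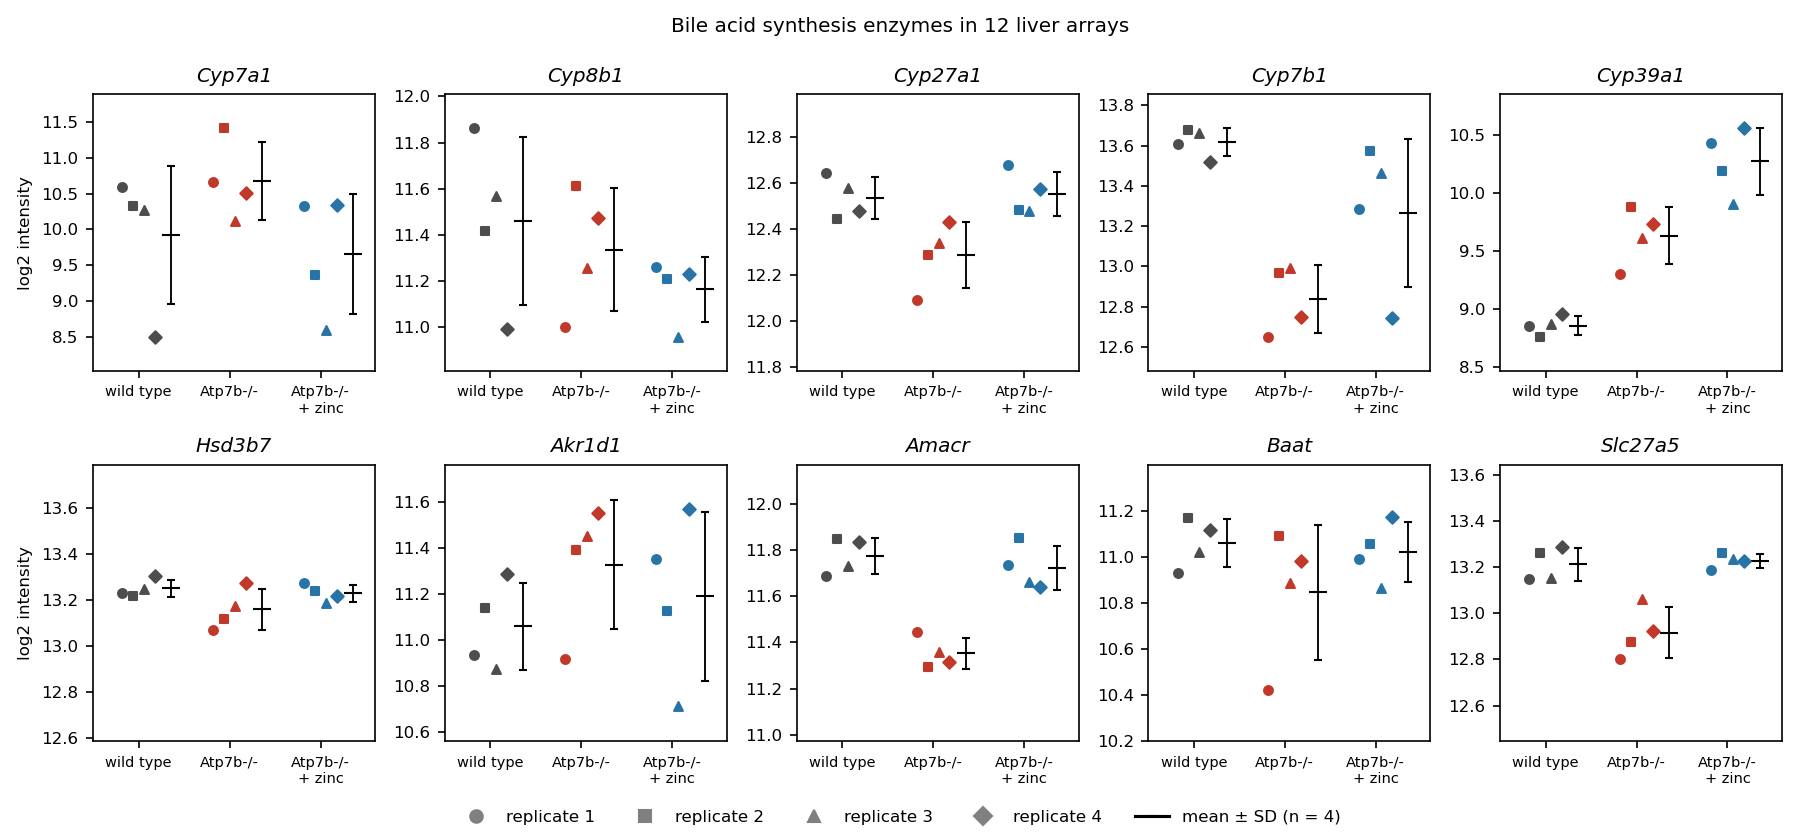
Level of each of the 10 enzymes on each array (log2, vertical axes), in wild type, untreated Atp7b-/- and zinc-treated Atp7b-/- with 4 arrays each; points are arrays and bars are group means with SD. Amacr, Slc27a5 and, by hundredths at the closest, Cyp27a1 are lower on every untreated Atp7b-/- array than on any other array. Cyp7b1 has its lowest mean in untreated Atp7b-/-, with zinc-treated array 4 within the untreated range. Cyp39a1 climbs across the 3 groups, and Cyp7a1 is widely spread within each.

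Cyp7a1, the rate-limiting hydroxylase of the classical route, did not pass the test in any comparison. Its level was 10.59, 10.33, 10.26 and 8.49 on the wild-type arrays, 10.67, 11.42, 10.12 and 10.51 on the untreated mutant arrays and 10.33, 9.36, 8.59 and 10.34 on the zinc-treated ones. All 3 groups overlapped, and a single wild-type array and zinc-treated arrays 2 and 3 held the low values. Group means of Cyp7a1 were 9.92 ± 0.96, 10.68 ± 0.54 and 9.66 ± 0.84 in that order (SD, n = 4). The difference of untreated Atp7b-/- from wild type was 0.76 (95% interval -0.25 to 1.77, adjusted p = 0.253, limma), and it was 0.28 without wild-type array 4. Zinc-treated minus untreated Atp7b-/- came to -1.02 (-2.04 to -0.01, adjusted p = 0.223), and to -0.34 without zinc-treated arrays 2 and 3. These intervals do not exclude a change of more than 2-fold in either comparison. Cyp7a1 had a pooled within-group SD of 0.80, and 99.5% of all genes had a smaller one. A second probe set for Cyp7a1 gave 8.82, 8.85, 8.63 and 7.05 on the wild-type arrays, 8.78, 9.74, 8.35 and 8.98 on the untreated mutant arrays and 8.44, 7.97, 7.42 and 8.60 on the zinc-treated ones, low on the same 3 arrays as the first.

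Cyp8b1 adds the ring hydroxyl that makes cholic acid and so sets the hydrophobicity of the bile acid pool. Its level was 11.86, 11.42, 11.57 and 10.99 on the wild-type arrays, 11.00, 11.61, 11.25 and 11.47 on the untreated mutant arrays and 11.26, 11.21, 10.95 and 11.23 on the zinc-treated ones. The groups overlapped throughout. The difference from wild type was -0.12 in untreated Atp7b-/- (95% interval -0.49 to 0.24, adjusted p = 0.611, limma) and -0.30 with zinc (-0.66 to 0.07, adjusted p = 0.337), and zinc-treated minus untreated was -0.17 (-0.53 to 0.19), or -0.09 without zinc-treated arrays 2 and 3. The stretch just before its start site is shown here because it holds letters of the kind bound by Hnf4a and Nr5a2, both measured on these arrays and described further on. It is the 250 bases upstream of the RefSeq start at chr9:121916306-121916555 on the minus strand of GRCm38.p6, written 5′ to 3′ in the direction of the gene, with the matched letters in capitals.

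Cyp8b1 upstream: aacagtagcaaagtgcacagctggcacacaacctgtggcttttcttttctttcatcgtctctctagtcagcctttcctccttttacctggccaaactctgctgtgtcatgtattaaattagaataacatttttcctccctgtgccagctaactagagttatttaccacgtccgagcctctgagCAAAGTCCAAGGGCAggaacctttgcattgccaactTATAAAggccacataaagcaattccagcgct

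The capitals of Cyp8b1 mark CAAAGTCC, the letters of an HNF4A-type site, from base -67, then CAAGGGCA, a match to the Nr5a2-type CAAGGNCA, from base -60, and TATAAA from base -31. The first pair share 1 base. Both strands were searched over all 32851 RefSeq windows of this length, of which 1.2% held CAAAGTCC, 5.53% held CAAGGNCA and 12.4% held TATAAA. RefSeq windows were matched for 4 of the 10 enzymes: Cyp8b1, Cyp27a1, Hsd3b7 and Akr1d1. AGGTCA, a nuclear receptor hexamer found in 14% of windows, was read 2 times in the Akr1d1 window, on the opposite strand from bases -232 and -210, and TTGCNNAA, a C/EBP-type sequence found in 9.56%, was read there once, at base -8. Such matches describe the letters and are not binding sites measured here.

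The alternative route begins with Cyp27a1, the mitochondrial enzyme that oxidises the side chain of cholesterol and, in both routes, of later intermediates. Its level was 12.64, 12.44, 12.58 and 12.48 on the wild-type arrays, 12.09, 12.29, 12.34 and 12.43 on the untreated mutant arrays and 12.68, 12.48, 12.48 and 12.57 on the zinc-treated ones. Every untreated Atp7b-/- array was below every array of the other groups, by a margin of hundredths at the closest. The difference from wild type was -0.25 (95% interval -0.43 to -0.06) and just missed the threshold (adjusted p = 0.0521, limma). Zinc-treated minus untreated was 0.26 (0.08 to 0.45, adjusted p = 0.0876), and zinc-treated minus wild type was 0.02 (adjusted p = 0.939). The wild-type comparison crossed the threshold with quantile normalization (-0.27, adjusted p = 0.0255), with dim genes left out (adjusted p = 0.0429), with an intensity trend in the variance (adjusted p = 0.033) and without Atp7b-/- array 4 (-0.29, adjusted p = 0.0421). Its upstream 250 bases, at chr1:74713285-74713534 on the plus strand of GRCm38.p6, are shown for contrast with Cyp8b1, since they hold a GC box and no TATAAA. The capitals mark CCGCCC, which is GGGCGG on the opposite strand, from base -28; 32.7% of all windows held it.

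Cyp27a1 upstream: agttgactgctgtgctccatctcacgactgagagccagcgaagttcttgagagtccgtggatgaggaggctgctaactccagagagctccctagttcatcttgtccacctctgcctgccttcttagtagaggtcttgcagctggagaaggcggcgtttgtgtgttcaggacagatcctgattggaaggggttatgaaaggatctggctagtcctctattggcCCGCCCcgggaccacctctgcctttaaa

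Cyp7b1 hydroxylates the oxysterols that Cyp27a1 makes, and it showed the largest fall of the 10 enzymes in untreated Atp7b-/- liver. Its level was 13.61, 13.68, 13.66 and 13.52 on the wild-type arrays, 12.65, 12.97, 12.99 and 12.75 on the untreated mutant arrays and 13.28, 13.57, 13.46 and 12.74 on the zinc-treated ones. The 4 untreated arrays all lay below the wild-type range, while the zinc-treated arrays were split, with 3 near wild type and array 4 within the untreated range. Group means of Cyp7b1 were 13.62 ± 0.07, 12.84 ± 0.17 and 13.27 ± 0.37 in that order (SD, n = 4). Cyp7b1 fell by 0.78 against wild type (95% interval -1.10 to -0.46, adjusted p = 0.00204, limma). Zinc-treated minus untreated was 0.43 (0.10 to 0.75, adjusted p = 0.11). That difference was 0.60 (adjusted p = 0.0074) without zinc-treated array 4 and 0.17 (adjusted p = 0.646) without arrays 2 and 3. Zinc-treated minus wild type was -0.35 (-0.67 to -0.03, adjusted p = 0.188), -0.60 (adjusted p = 0.047) without arrays 2 and 3, and -0.18 (adjusted p = 0.399) without array 4. A second probe set of Cyp7b1 read 12.98, 13.23, 13.22 and 12.98 on the wild-type arrays, 12.06, 12.35, 12.36 and 12.09 on the untreated mutant arrays and 12.67, 13.03, 12.86 and 11.94 on the zinc-treated ones. It fell by 0.89 against wild type over 45037 probe sets (adjusted p = 0.0041, limma) and zinc-treated array 4 read below all 4 untreated arrays on it.

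Cyp39a1, which hydroxylates oxysterols made by Cyp46a1, was the 1 enzyme higher in untreated Atp7b-/- than in wild type. Its level was 8.85, 8.76, 8.87 and 8.95 on the wild-type arrays, 9.30, 9.89, 9.61 and 9.73 on the untreated mutant arrays and 10.44, 10.19, 9.91 and 10.56 on the zinc-treated ones. The 3 groups did not overlap in any pairing, with zinc highest and wild type lowest. Group means of Cyp39a1 were 8.86 ± 0.08, 9.63 ± 0.25 and 10.27 ± 0.29 in that order (SD, n = 4). Cyp39a1 rose by 0.78 in untreated Atp7b-/- against wild type (95% interval 0.47 to 1.08, adjusted p = 0.00152, limma). It was higher again with zinc than without, by 0.64 (0.33 to 0.95, adjusted p = 0.0171). Against wild type the zinc-treated difference reached 1.41 (1.11 to 1.72, adjusted p = 3.03e-05), or 2.67-fold. Both differences from wild type passed in each of the 24 alternative settings. The difference between zinc-treated and untreated did not pass without zinc-treated array 1 (0.59, adjusted p = 0.0539) or array 4 (0.54, adjusted p = 0.0513). It was 0.87 (adjusted p = 0.0066) without zinc-treated arrays 2 and 3.

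**Figure D2:**
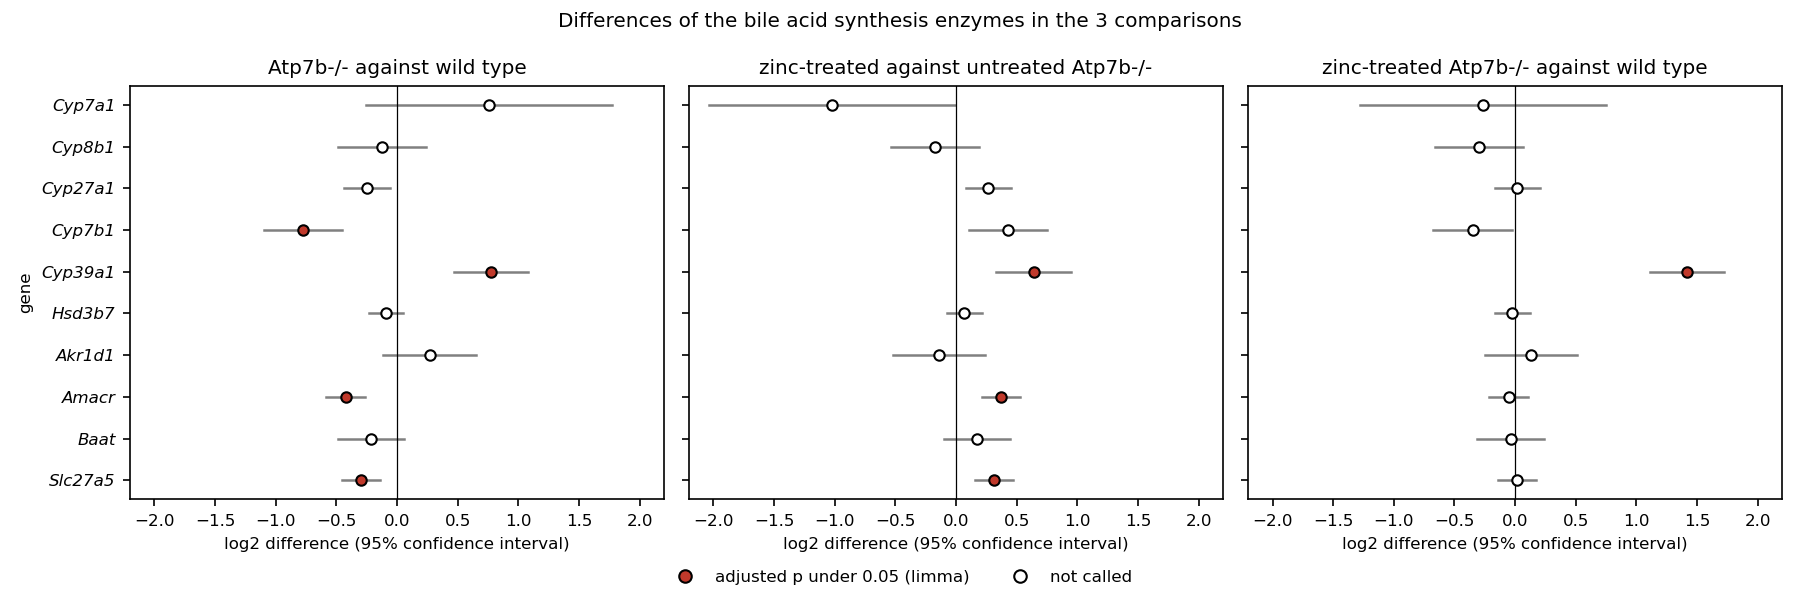
Log2 difference with its 95% interval for each of the 10 enzymes (horizontal axis) in the 3 comparisons, from limma. Cyp39a1 is right of 0 in all 3, Cyp7b1, Amacr and Slc27a5 are left of 0 in untreated Atp7b-/- against wild type, and the interval of Cyp7a1 is the widest.

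Hsd3b7 and Akr1d1, which act on the hydroxylated ring, did not pass the test in any comparison. Hsd3b7 oxidises the ring hydroxyl and shifts the double bond, a step needed in both routes. It was the steadiest of the 10, with a within-group SD of 0.06 that only 1.53% of all genes undercut, and its level ran from 13.22 to 13.30 in wild type, from 13.07 to 13.28 in untreated Atp7b-/- and from 13.19 to 13.27 with zinc. The difference of untreated Atp7b-/- from wild type was -0.09 (95% interval -0.23 to 0.05, adjusted p = 0.338, limma), and zinc-treated minus untreated was 0.07 (adjusted p = 0.598). Akr1d1, the reductase that then saturates the ring, read 10.94, 11.14, 10.88 and 11.29 on the wild-type arrays, 10.92, 11.39, 11.45 and 11.55 on the untreated mutant arrays and 11.35, 11.13, 10.71 and 11.57 on the zinc-treated ones. Its groups overlapped, and its differences were 0.27 (-0.11 to 0.65, adjusted p = 0.284), -0.14 and 0.13 in the 3 comparisons in turn. The difference of untreated Atp7b-/- from wild type was 0.40 without untreated array 1 (adjusted p = 0.101), and it passed at that size when zinc-treated arrays 2 and 3 were left out as well (adjusted p = 0.0258). Without those zinc-treated arrays alone, zinc-treated minus untreated was 0.13 and zinc-treated minus wild type 0.40 (adjusted p = 0.789 and 0.263). The second probe set of Akr1d1 differed by 0.52 between untreated Atp7b-/- and wild type (adjusted p = 0.226 over probe sets).

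Amacr inverts the methyl branch of the side chain so that peroxisomal oxidation can proceed; 6.78% of all genes had a smaller within-group SD. Its level was 11.69, 11.85, 11.73 and 11.84 on the wild-type arrays, 11.44, 11.29, 11.36 and 11.31 on the untreated mutant arrays and 11.73, 11.85, 11.66 and 11.64 on the zinc-treated ones. Untreated Atp7b-/- arrays lay below all others, and wild-type and zinc-treated arrays overlapped. Group means of Amacr were 11.78 ± 0.08, 11.35 ± 0.07 and 11.72 ± 0.10 in that order (SD, n = 4). Amacr fell by 0.42 in untreated Atp7b-/- against wild type (95% interval -0.58 to -0.26, adjusted p = 0.00104, limma). It was higher by 0.37 with zinc than without (0.21 to 0.53, adjusted p = 0.00948), and zinc-treated minus wild type was -0.05 (-0.21 to 0.11, adjusted p = 0.735). Without zinc-treated arrays 2 and 3 the zinc difference was 0.33 and did not pass (adjusted p = 0.0721).

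Slc27a5 joins bile acids to coenzyme A, and Baat exchanges the coenzyme A of bile acids for taurine or glycine. Slc27a5 read 13.15, 13.26, 13.15 and 13.29 on the wild-type arrays, 12.80, 12.88, 13.06 and 12.92 on the untreated mutant arrays and 13.19, 13.26, 13.23 and 13.23 on the zinc-treated ones. Again the untreated arrays lay below all others. Group means of Slc27a5 were 13.21 ± 0.07, 12.92 ± 0.11 and 13.23 ± 0.03 in that order (SD, n = 4). Slc27a5 fell by 0.30 against wild type (95% interval -0.45 to -0.14, adjusted p = 0.00958, limma), and was higher by 0.31 with zinc than without (0.15 to 0.47, adjusted p = 0.0223). The zinc-treated level differed from wild type by 0.01 (-0.14 to 0.17, adjusted p = 0.945). The zinc difference lost its call in 8 of 24 settings. It did so without zinc-treated arrays 2 and 3 (0.29, adjusted p = 0.147) or without those and untreated array 1 (0.25, adjusted p = 0.229), and without any one of untreated arrays 1, 2 and 4 or zinc-treated arrays 2, 3 and 4, with differences of 0.27 to 0.31 and adjusted p of 0.052 to 0.0602.

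Baat, the last enzyme of the pathway, read 10.93, 11.17, 11.02 and 11.11 on the wild-type arrays, 10.42, 11.09, 10.89 and 10.98 on the untreated mutant arrays and 10.99, 11.05, 10.86 and 11.17 on the zinc-treated ones. The groups overlapped, and untreated array 1 was the lowest. Its difference was -0.21 from wild type (95% interval -0.49 to 0.06, adjusted p = 0.233, limma) and 0.18 between zinc-treated and untreated (adjusted p = 0.455). Without untreated array 1 these were -0.07 and 0.04. The second Baat probe set gave -0.24 against wild type (adjusted p = 0.229 over probe sets).

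**Figure D3:**
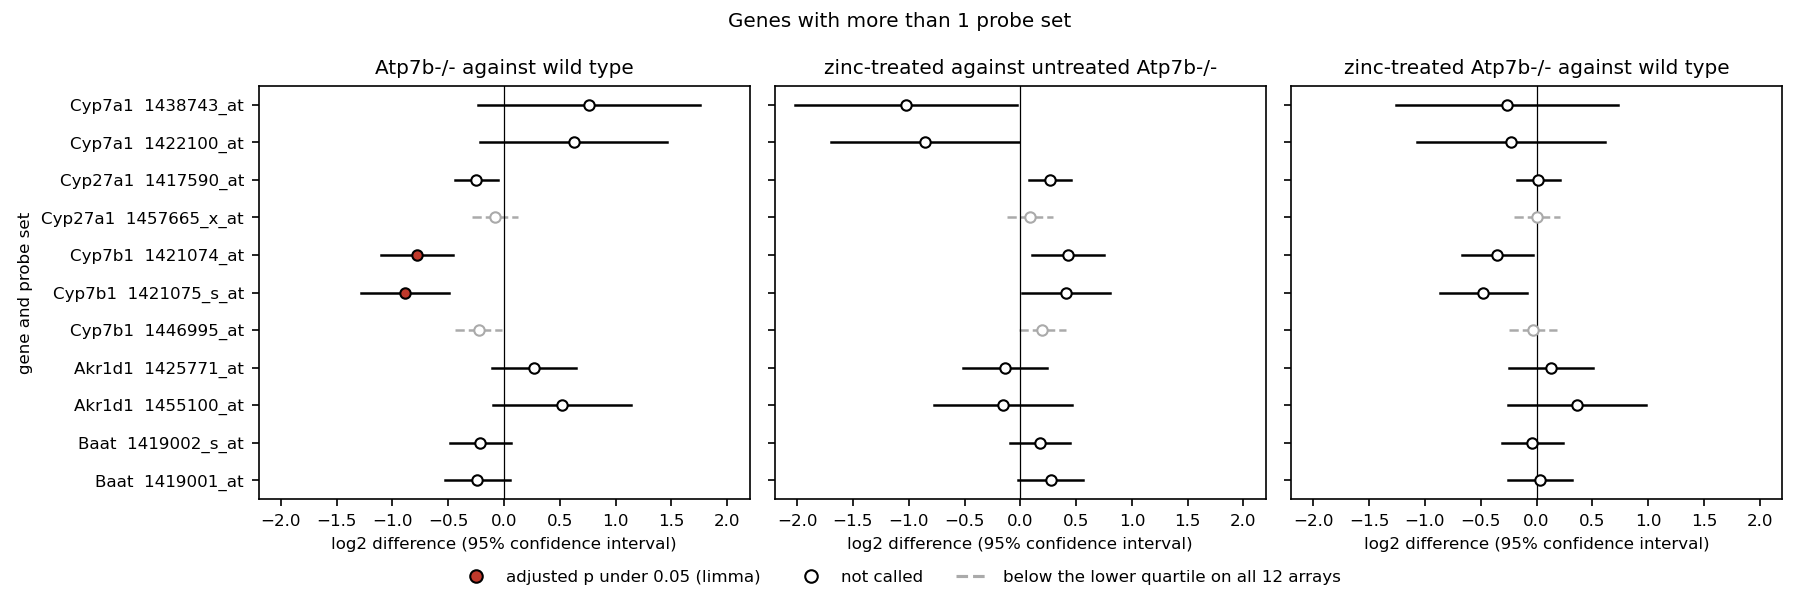
Log2 difference with its 95% interval for each probe set of the 5 enzymes that have more than 1, in the 3 comparisons; filled points passed in limma, and dashed gray lines are probe sets below the lower quartile on all 12 arrays. Both bright Cyp7b1 probe sets lie left of 0 in untreated Atp7b-/- against wild type, and the other bright pairs, of Cyp7a1, Akr1d1 and Baat, share their side of 0 there without passing.

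Of 16 probe sets that carry a member's symbol, 2 were below the lower quartile of their array on all 12 arrays, 1 for Cyp27a1 (2.50 to 2.89) and 1 for Cyp7b1 (3.09 to 3.64). Averaging them in lowered the difference of Cyp7b1 from wild type to -0.63 and of Cyp27a1 to -0.16. The enzymes also differed in scatter. Within-group SDs were 0.29 for Akr1d1, 0.27 for Cyp8b1, 0.24 for Cyp7b1, 0.22 for Cyp39a1, 0.19 for Baat, 0.11 for Cyp27a1, 0.08 for Amacr and 0.08 for Slc27a5, beside a median of 0.15 over all genes. Cyp7a1 was measured with the widest interval, while Amacr and Slc27a5, whose differences were smaller than that of Cyp7a1, passed the test. The standard error of a Cyp8b1 difference was 0.17, near the 0.15 of Cyp7b1 and 0.14 of Cyp39a1, which passed against wild type.

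**Figure D4:**
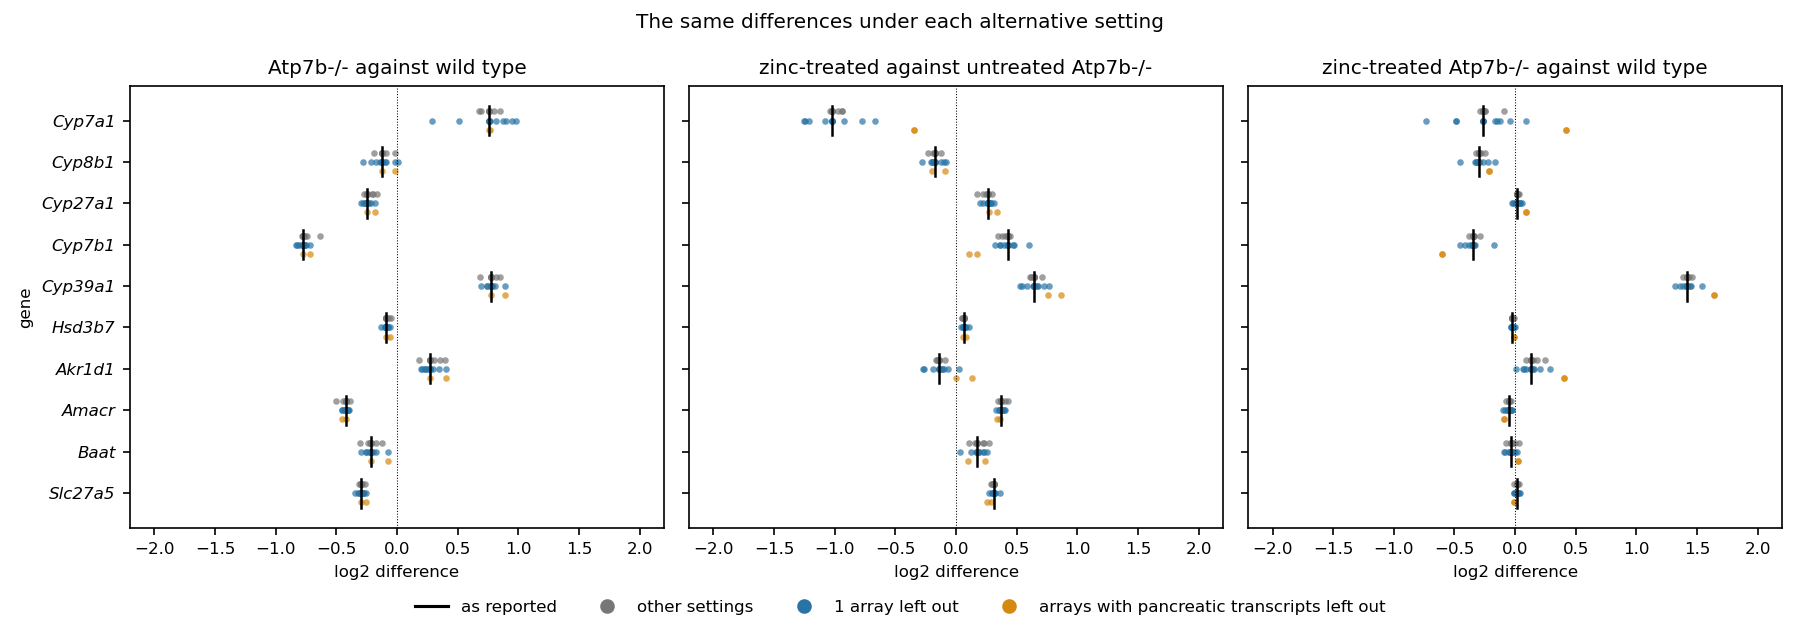
Log2 difference of each enzyme (horizontal axis) as reported (black lines) and under the 24 alternative settings (points), in the 3 comparisons. The points of Cyp7b1, Cyp39a1, Amacr and Slc27a5 stay on 1 side of 0 against wild type in untreated Atp7b-/-, and the zinc differences of Cyp7a1 and Cyp7b1 shrink without zinc-treated arrays 2 and 3, to -0.34 and 0.17.

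Side chain and other sterol enzymes and carriers, some of them outside bile acid synthesis, were read as a list of 17 genes. In untreated Atp7b-/- against wild type 7 fell and 1 rose (median -0.20), with zinc against untreated 5 rose and 0 fell in limma's test (median 0.13; 7 and 0 at an unadjusted p under 0.05), and with zinc against wild type 1 rose and 1 fell. The medians of all genes were -0.05 and 0.01 in the first pair of comparisons, with 10.3% of genes lower and 1.70% higher. Without zinc-treated arrays 2 and 3, 3 rose with zinc. Cyp2c70, which makes the muricholic acids of the mouse, was 14.00, 13.98, 14.14 and 13.78 on the wild-type arrays, 13.22, 13.17, 13.32 and 13.24 on the untreated mutant arrays and 13.47, 13.71, 13.80 and 13.62 on the zinc-treated ones. It fell by 0.74 in untreated Atp7b-/- (adjusted p = 6.51e-05, limma) and was higher by 0.41 with zinc than without (adjusted p = 0.0172), or 0.31 (adjusted p = 0.176) without zinc-treated arrays 2 and 3; leaving out either alone also ended that call (0.39 and 0.36). Cyp2c70 was also the gene that fell with zinc against wild type, by 0.33 (adjusted p = 0.0459), a call lost in 12 of 24 settings. Slc27a2, a peroxisomal activator of bile acid precursors, fell by 0.72 (adjusted p = 6.51e-05) and was 0.43 higher with zinc (adjusted p = 0.0109). Sult2a8, a bile acid sulfotransferase, fell by 0.97 (adjusted p = 0.001), and Akr1c14, a hydroxysteroid dehydrogenase, fell by 0.84 (adjusted p = 0.00309). Acaa1b, a peroxisomal thiolase, fell by 0.45 (adjusted p = 0.00744). Zinc-treated minus untreated was 0.83, 0.80 and 0.53 for Sult2a8, Akr1c14 and Acaa1b (adjusted p = 0.00974, 0.0134 and 0.00963), and that of Sult2a8 did not pass without zinc-treated arrays 2 and 3 (0.80, adjusted p = 0.08). The exception among those that passed was Acox2, the peroxisomal oxidase of the branched side chain, which rose by 0.49 (adjusted p = 0.000478), and was still 0.35 above wild type with zinc (adjusted p = 0.0131), or 0.33 without those 2 arrays (adjusted p = 0.11).

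Of 33 measured genes that sense bile acids or control their synthesis, 8 fell and 5 rose in untreated Atp7b-/- against wild type (median -0.03), and 2 rose and 3 fell with zinc against untreated. The median of all genes was -0.05, and 14.3% of them rose and 10.3% fell against wild type, so the count that rose is near the background. With zinc against untreated, 1.70% of all genes rose and 4.84% fell. Set against wild type, 1 of the 33 rose and 0 fell with zinc in limma's test (4 and 7 at an unadjusted p under 0.05). Of all genes, 4.89% rose and 2.73% fell there. Nr0b2, the repressor induced by FXR, was 9.37, 9.67, 9.75 and 10.59 on the wild-type arrays, 8.68, 8.73, 8.19 and 8.30 on the untreated mutant arrays and 10.01, 8.99, 9.38 and 9.95 on the zinc-treated ones. Every untreated Atp7b-/- array was below every other array. Nr0b2 fell by 1.37 against wild type (adjusted p = 0.00197, limma) and was 1.11 higher with zinc than without (adjusted p = 0.0231), a difference that did not pass without untreated array 3 or 4 or zinc-treated array 1 or 4 (adjusted p of 0.0591 to 0.07). FXR itself (Nr1h4) differed by 0.25 between untreated Atp7b-/- and wild type without passing (adjusted p = 0.135).

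Nr5a2 and Hnf4a, the factors whose letters were read upstream of Cyp8b1, gave different values. Nr5a2 differed by 0.01 between untreated Atp7b-/- and wild type (adjusted p = 0.971, limma) and was 0.71 higher with zinc than without (adjusted p = 0.0199), but averaging its probe sets gave 0.12 (adjusted p = 0.442). Without zinc-treated arrays 2 and 3 that difference was 0.64 (adjusted p = 0.152), and leaving out untreated array 3 or 4 or zinc-treated array 1, 2 or 3 alone also ended the call (0.65 to 0.70). Against wild type, Nr5a2 was 0.72 higher with zinc (adjusted p = 0.0151, limma), a call lost in 4 of 24 settings, among them averaging its probe sets. Hnf4a fell by 0.25 against wild type (adjusted p = 0.0233), a call lost in 6 of 24 settings. Without cross-hybridising probe sets the Hnf4a difference was -0.084 (adjusted p = 0.806, limma). That call was also lost without wild-type array 1 and without untreated array 1 or 4. The receptor Fgfr4 did not pass (-0.03 against wild type), and its partner Klb fell by 0.48 (adjusted p = 0.0398), a call lost in 10 settings, among them each that left out 1 wild-type array (-0.52 to -0.45). Of the remaining control genes named by rule, Cebpb rose by 1.05 (adjusted p = 0.00285), Egr1 by 3.91 (adjusted p = 0.0077) and Jun by 1.93 (adjusted p = 0.00941). The rise was uneven for Egr1 and Jun. Untreated array 3 read 7.07 for Egr1, beside 6.23 to 6.69 in wild type. For Jun it read 8.84, within the wild-type range of 7.68 to 8.92. Rxra, the partner of FXR, fell by 0.59 (adjusted p = 0.00427) and Fgf21 fell by 1.91 (adjusted p = 0.00551).

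**Figure D5:**
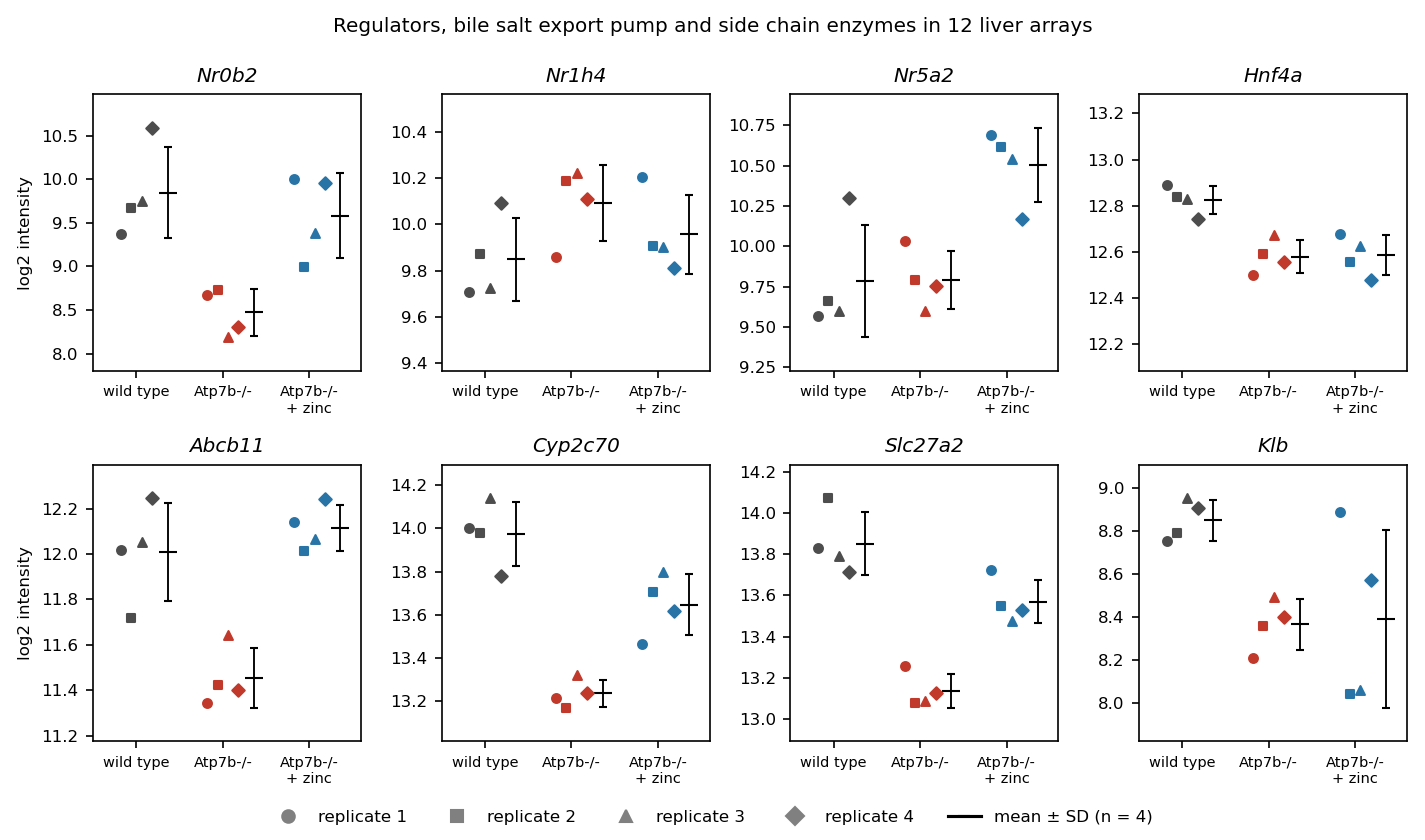
Log2 level on each array of the control genes Nr0b2, Nr1h4, Nr5a2, Hnf4a and Klb, the export pump Abcb11 and the side chain enzymes Cyp2c70 and Slc27a2, by group (4 arrays each; bars are means with SD). Nr0b2, Abcb11, Cyp2c70 and Slc27a2 are lower on all 4 untreated Atp7b-/- arrays than on any other array. Wild-type array 4 is the highest of its group for Nr0b2, Nr1h4, Nr5a2 and Abcb11, and the lowest for Hnf4a, Cyp2c70 and Slc27a2.

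A list of 16 genes taken as FXR targets of liver shared Slc27a5 and Baat with the enzymes and Nr0b2 with the control genes. In untreated Atp7b-/- against wild type 4 of the 16 fell and 3 rose (median -0.13, beside -0.05 for all genes). Of all genes, 10.3% fell and 14.3% rose in that comparison. With zinc against untreated 4 rose and 1 fell (median 0.06, beside 0.01), where 1.70% of all genes rose and 4.84% fell. Against wild type, 2 rose and 0 fell with zinc in limma's test (4 and 0 at an unadjusted p under 0.05). Of all genes, 4.89% rose and 2.73% fell there. Abcb11, the bile salt export pump, fell by 0.56 (adjusted p = 0.00221, limma) and was 0.66 higher with zinc than without (adjusted p = 0.00267). Osgin1 fell by 1.63 (adjusted p = 4.61e-05) and was 1.22 higher with zinc (adjusted p = 0.0024). Abcb4, which moves phosphatidylcholine into bile, rose by 0.53 (adjusted p = 0.000362). So did Apoc2, an activator of lipoprotein lipase, by 0.81 (adjusted p = 6.42e-06), and Cyp2b10, a drug-metabolising enzyme, by 1.10 (adjusted p = 0.0139). Their zinc-treated minus untreated differences were -0.17, -0.49 and -0.40 in that order (adjusted p = 0.248, 0.00217 and 0.451, limma). Their differences from wild type with zinc were 0.36, 0.32 and 0.69 (adjusted p = 0.0137, 0.0242 and 0.175). The calls of Abcb4 and Apoc2 there were lost in 3 and 8 of 24 settings. Of 13 measured genes of cholesterol transport and handling, 4 fell and 0 rose in limma's test of untreated Atp7b-/- against wild type. Of all genes, 10.3% fell and 14.3% rose there. The median of the 13 was -0.20, beside -0.05 for all genes, and 5 were lower and 1 higher at an unadjusted p under 0.05. Those that fell in limma's test were Abca1 by 0.38, Lcat by 0.43, Abcg8 by 0.50 and Scarb1 by 0.31 (a call lost in 5 settings). Of these, Scarb1, the hepatic receptor for high-density lipoprotein, was higher with zinc than without, by 0.34 (adjusted p = 0.0391), a call lost in 13 of 24 settings.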

How the data were processed

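The values are log2 levels per probe set, as the authors deposited them in 1 table of 45101 probe sets by 12 arrays. Their background correction and normalization were not given in the sources used here; array medians lay between 5.63 and 5.71 and no value was missing. Probe sets were named through GEO's platform annotation, with symbols updated through RefSeq gene IDs (34741 of 34945 probe sets with 1 symbol). The 64 control probe sets, 932 with several symbols and 9160 with none were left out of the gene fit. Each gene is its probe set of highest mean over the 12 arrays. A linear model with empirical Bayes variances (limma 3.58.1, R 4.3.3) was fitted to all 18193 genes with 3 groups, and p-values were adjusted by Benjamini-Hochberg over all genes. "Rose", "fell" and "passed" mean an adjusted p under 0.05. The 45037 probe sets other than controls were fitted in the same way. The fit was tested on simulated data. Figures were drawn with matplotlib 3.10.9 in Python 3.11.15. Upstream sequences were RefSeq's.

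The members and gene lists were chosen with earlier results of these data known. All 10 members are named. Of each list the text names up to 6 genes with the smallest adjusted p over the 3 comparisons among those that passed, and also Nr0b2, Nr1h4, Nr5a2, Hnf4a, Fgfr4 and Klb, with Atp7b and Mt1 as the label check. The 24 alternatives were other scalings, probe set choices, filters, variance models, a replicate block, and arrays left out. Every pair of arrays differed. Precision is limited by having 4 arrays a group.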

Additional observations from a re-analysis of the deposited data

Results flagged for a closer look

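In a group of 4 arrays, an array was singled out when its gap to the nearest other array exceeded Dixon's critical value as a share of the group's range. Of 114 groups of arrays (38 genes in 3 groups), 5 had such an array, where chance gives about 1 in 20. Cyp7a1 was 8.49 in wild-type array 4 against 10.26 to 10.59 in the other wild-type arrays. Cyp8b1 was 10.95 in zinc-treated array 3 against 11.21 to 11.26. Nr5a2 was 10.30 in wild-type array 4 against 9.57 to 9.66, and Fgfr4 was 9.25 in that array against 8.63 to 8.66. In untreated Atp7b-/- array 1, Fgfr4 was 8.32 against 8.86 to 8.96.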

How the results depend on the processing

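Against wild type, the calls of Cyp7b1, Cyp39a1, Amacr and Slc27a5 in untreated Atp7b-/- and of Cyp39a1 with zinc kept their direction and passed in all 24 alternatives. Over the 720 values of the 10 enzymes, 12 lost a call, 8 gained one and 18 changed sign, none of the last while passing. The cause of these changes was not tested. Genes passing between zinc-treated and untreated numbered 1861 with array weights, 614 without zinc-treated arrays 2 and 3, 598 without those and untreated array 1, and 689 to 1158 with single arrays left out, against 1190. Zinc-treated against wild type gave 699 and 881 with those sets left out, against 1386. In both of these leave-outs, 1 enzyme passed between zinc-treated and untreated and 2 passed against wild type. The higher share of calls was 58.2%, 26.0% and 64.2% in the 3 comparisons in turn, 49.6%, 40.0% and 58.0% with quantile normalization, and 68.1%, 19.7% and 69.1% with median centring. Sign changes were as follows. Untreated against wild type: Nr5a2 -0.073 with quantile normalization, -0.048 with array weights and -0.070 without zinc-treated arrays 2 and 3 and untreated array 1; Fgfr4 0.0068 with median centring, 0.046 with weights and 0.12 without those 3 arrays. Zinc-treated against untreated: Hnf4a -0.015 with median centring and with weights, -0.0030 without cross-hybridising probe sets, -0.00038 without zinc-treated arrays 2 and 3 and -0.027 without those and untreated array 1; Mt1 0.17 without cross-hybridising probe sets; Akr1d1 0.13 without zinc-treated arrays 2 and 3. Zinc-treated against wild type: Slc27a5 -0.0061 with quantile normalization and -0.0072 without zinc-treated arrays 2 and 3; Scarb1 -0.00064 with quantile normalization; Baat 0.032 without cross-hybridising probe sets; and, without zinc-treated arrays 2 and 3, Baat 0.024, Cyp7a1 0.42, Akr1c14 0.041 and Nr0b2 0.14. Leaving out single arrays gave, against wild type, ranges of Cyp8b1 -0.28 to 0.0097, Nr5a2 -0.07 to 0.18 and Fgfr4 -0.093 to 0.12. Zinc-treated against untreated gave Hnf4a -0.025 to 0.042, Fgfr4 -0.016 to 0.24, Klb -0.14 to 0.14 and Akr1d1 -0.27 to 0.021. Zinc-treated against wild type gave Slc27a5 -0.0082 to 0.039, Scarb1 -0.0013 to 0.065, Cyp27a1 -0.024 to 0.053, Akr1c14 -0.12 to 0.067, Cyp7a1 -0.74 to 0.093, Baat -0.089 to 0.014 and Acaa1b -0.016 to 0.14. After the group mean of each gene was subtracted, arrays of different groups with the same replicate number correlated at -0.13 to 0.24, above 0.1 in 5 of 12 pairs. In 5 of the 12 the same-numbered array was also the best partner. Whether a number marks a shared litter, batch or day was not given in the sources used here. A replicate block gave 4449, 1171 and 1353 genes in the 3 comparisons, against 4480, 1190 and 1386, and changed no enzyme's call; it ended those of Klb against wild type (adjusted p = 0.0554, limma) and Scarb1 with zinc (0.0568). Where a group is left with few arrays, its spread is assumed to be that of the other groups. Arrays give no counts, and values near background have no lower limit here.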

Other observations

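Wild-type array 4, which held the lowest Cyp7a1, was also the lowest of its group for Cyp8b1 (10.99, others 11.42 to 11.86), for Cyp7b1 (13.52, others 13.61 to 13.68) and for Cyp2b10 (6.62, others 7.73 to 8.05). The same array was the highest of its group for Nr0b2 (10.59, others 9.37 to 9.75) and for Fgf21, a hormone made by hepatocytes (9.12, others 6.67 to 7.30). Among the zinc-treated arrays, numbers 2 and 3, which carried the acinar markers, had the lower values of Cyp7a1, Cyp39a1, Klb (8.04 and 8.06, against 8.89 and 8.58), Rxra (9.60 and 9.44, against 9.96 and 9.92) and Fgf21 (6.28 and 6.11, against 7.38 and 7.03). Mt1, the metallothionein that binds copper and zinc, was 7.14 to 11.17 in wild type, 14.52 to 14.79 in untreated Atp7b-/- and 14.29 to 14.62 with zinc, so Cyp39a1 and Mt1 were both above their wild-type range on all 8 Atp7b-/- arrays. These are values for single arrays and no test was made of them.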
